A study of Mus musculus with 28 samples.

Results

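*Oxt*, *Avp*, *Crh*, *Trh*, *Ghrh*, *Gnrh1* and *Kiss1* encode the peptide hormones by which the hypothalamus drives the pituitary. These 7 genes were chosen by name, as the neuroendocrine hormone genes of the hypothalamus, and were read in all 28 RNA-seq libraries of the series. The count files listed 29878 genes. 6 of the 7 hormone genes were found there by their Ensembl identifiers, and *Kiss1* was not analysed here. The libraries came from male mice, 2 to 3 months old and backcrossed to C57Bl/6, which carried no, 1 or 2 knockout alleles of *Hdc* (wild-type [WT], heterozygous and *Hdc*-KO). *Hdc* encodes histidine decarboxylase, the enzyme that makes histamine, and the knockout is constitutive. The hypothalamus and the ventral striatum each had 3 WT, 3 heterozygous and 2 KO libraries, the dorsal striatum 2, 3 and 2, and the motor cortex 1, 2 and 2. Libraries are named by a digit and a letter: digits 1 to 3 are WT, 4 to 6 heterozygous and 7 and 8 KO, and the letter f marks the hypothalamus.

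Oxytocin (*Oxt*) and vasopressin (*Avp*) are made by large neurons of the paraventricular and supraoptic nuclei, which send axons to the posterior pituitary, and *Avp* is also transcribed in the suprachiasmatic nucleus. Corticotropin-releasing hormone (*Crh*) and thyrotropin-releasing hormone (*Trh*) neurons of the paraventricular nucleus, growth hormone-releasing hormone (*Ghrh*) neurons of the arcuate nucleus and the scattered gonadotropin-releasing hormone (*Gnrh1*) neurons release their products into the portal blood of the anterior pituitary. *Kiss1*, which encodes kisspeptin, acts upstream of the *Gnrh1* neurons. Each gene is thus active in a small population of cells within the dissected block. In such bulk samples, fewer cells of a type and less RNA per cell cannot be told apart.

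*Oxt* (ENSMUSG00000027301, chr2:130576173-130577054, plus strand, GRCm38) and *Avp* (ENSMUSG00000037727, chr2:130580620-130582554, minus strand) lie tail to tail, 3565 bp apart. Both are 3.96 Mb from *Hdc* (chr2:126593667-126619299, minus strand), and *Ghrh* (ENSMUSG00000027643, chr2:157329497-157347506, minus strand) is on the same chromosome, 30.71 Mb from *Hdc*. *Crh* (ENSMUSG00000049796) is at chr3:19693401-19695396 and *Trh* (ENSMUSG00000005892) at chr6:92242061-92244650, both on the minus strand. *Gnrh1* (ENSMUSG00000015812) is at chr14:67745181-67749439 on the plus strand. None of these 6 genes overlapped another annotated gene, with 0 overlapping genes each. *Kiss1* lies at chr1:133321875-133329901, within the read-through locus Gm28040. The identifier of Gm28040 in the count files (ENSMUSG00000098306) had 0 counts in all 28 libraries, which gives no level for *Kiss1*.

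RefSeq promoter windows (GRCm38.p6) were at hand for 5 of the 7 genes, in 6 windows. The 250 bases before the start are shown for *Oxt*, *Avp* and *Trh* because they are the genes with the highest levels per length. The capitals mark AGGTCA or its reverse complement TGACCT, the core letters to which nuclear hormone receptors bind, and CACGTG, the E-box letters to which the clock factors bind. Both strands were searched, and the motifs share no positions here.
Oxt promoter, chr2:130575919-130576168, plus strand: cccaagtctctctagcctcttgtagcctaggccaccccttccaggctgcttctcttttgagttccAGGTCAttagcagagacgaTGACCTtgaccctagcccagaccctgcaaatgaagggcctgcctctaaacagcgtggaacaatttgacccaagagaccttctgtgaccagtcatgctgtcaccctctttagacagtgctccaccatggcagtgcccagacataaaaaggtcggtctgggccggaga
Avp promoter, chr2:130582589-130582838, minus strand: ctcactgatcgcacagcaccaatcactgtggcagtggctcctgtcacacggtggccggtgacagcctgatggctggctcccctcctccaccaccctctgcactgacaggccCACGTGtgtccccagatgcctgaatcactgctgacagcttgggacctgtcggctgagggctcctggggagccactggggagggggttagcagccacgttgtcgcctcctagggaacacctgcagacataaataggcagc
Trh promoter, chr6:92244651-92244900, minus strand: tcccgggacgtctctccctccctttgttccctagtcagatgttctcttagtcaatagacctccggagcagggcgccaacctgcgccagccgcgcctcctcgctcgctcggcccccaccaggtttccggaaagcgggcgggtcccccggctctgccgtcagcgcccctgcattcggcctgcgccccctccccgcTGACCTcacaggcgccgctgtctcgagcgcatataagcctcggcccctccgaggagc
*Oxt* had 2 nuclear receptor motifs, whose first letters were 185 and 166 bases before the start, and *Trh* had 1, at 57 bases. *Avp* had 0 of these motifs and 1 E-box, at 139 bases. Among the windows not shown, each of the 2 windows of *Ghrh* held 1 nuclear receptor motif, at 179 and at 84 bases, and *Kiss1* held 2, at 65 and 36 bases. Of 32851 promoter windows, 14.02% held the nuclear receptor motif and 6.02% the E-box. Such matches describe letters and not sites in use.

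Libraries held between 3536802 and 5150280 counts on genes (median 4392301), and those of the hypothalamus between 3861785 and 4901109. Levels are given as CPM, counts scaled to a common library size after edgeR's trimmed mean of M-values (TMM) correction for differences in composition. *Hdc* was not called different in KO hypothalamus (log2 change -0.40, edgeR adjusted p = 0.84), and KO libraries of the other regions had more *Hdc* counts than WT ones. *Hdc* was at 15.3, 19.1 and 16.8 CPM in the 3 WT, 14.6, 21.8 and 15.2 CPM in the 3 heterozygous and 11.7 and 14.2 CPM in the 2 KO libraries of the hypothalamus. In the dorsal striatum it was at 0.899 and 0 CPM in WT, 6.73, 4.17 and 5.72 CPM in heterozygous and 9.21 and 8.14 CPM in KO libraries. In the ventral striatum and the motor cortex too, the labelled genotypes did not overlap and rose in this order. The files hold 1 count for the whole gene, and the deleted part cannot be told apart from the rest. WT, heterozygous and KO therefore stand throughout for the libraries labelled so.

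Most defining genes of the hypothalamus were present in the hypothalamus libraries, at unlike levels. The lateral hypothalamic peptides *Hcrt* and *Pmch* were at 58.8 ± 12.1 and 99.6 ± 16.8 CPM (SD, n = 8), and *Otp*, a transcription factor that neuroendocrine neurons need, at 27.4 ± 8.18 CPM (SD, n = 8). Of the other listed hypothalamus markers, *Fezf1*, *Nkx2-1* and *Sim1* averaged 15.2, 11.2 and 10.4 CPM, *Bsx* 2.27 CPM and *Rax* 0.197 CPM. The arcuate markers *Npy*, *Pomc* and *Agrp* averaged 20.7, 5.54 and 1.18 CPM, and *Npy* was lower than in each other region. Of the pituitary genes, *Gh* and *Pou1f1* had 0 CPM in all 8 libraries, and the sum over the 8 listed pituitary markers was between 0.968 and 4.82 CPM. The 2 of these markers with enough counts to be tested, *Cga* and *Tshb*, which encode subunits of pituitary hormones, reached 2.24 and 2.07 CPM. Both were higher in the hypothalamus than in the dorsal and the ventral striatum, and *Cga* was also higher than in the motor cortex (edgeR's likelihood ratio test). The part of pituitary RNA in the region differences was not tested. RNA of 5 thalamus markers was high in all 8 libraries, with sums of 380 to 955 CPM and a mean of 615.2 CPM. No library from outside the hypothalamus had a sum above 177.9 CPM, a ventral striatum value. Each of these 5 markers was called higher than in every other region (edgeR's likelihood ratio test). How much of this RNA came from thalamus tissue was not tested. In 2 libraries markers of neighboring tissue stood out from the other libraries. Library 8f (KO) had 318.5 CPM summed over 5 cortex markers, against 27.7 to 58.3 CPM in the other 7, and library 6f (heterozygous) had the most thalamus marker RNA, 955 CPM summed over 5 genes against 380 to 841.1 CPM in the others.

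*Oxt*, *Avp*, *Trh* and *Ghrh* were at their highest levels in the hypothalamus, and *Crh* was at its highest in the ventral striatum. The low-count filter kept genes above 1 CPM in at least 2 libraries, 14979 genes in all, and 5 of the 6 listed hormone genes passed it, while *Gnrh1* did not. *Oxt* and *Ghrh* passed through the hypothalamus alone, with 0 of the 20 libraries of other regions above that level, so a difference between regions was built into their selection and their values are a description. *Avp* had 2 such libraries, *Crh* 12 and *Trh* 15. For the filter, CPM was taken on library sizes without the TMM correction, so these numbers can differ from the levels given below. *Oxt*, *Avp*, *Trh* and *Ghrh* were all called higher in the hypothalamus than in each of the other 3 regions. *Crh* was higher than in the dorsal striatum, lower than in the ventral striatum and not called different from the motor cortex. These calls are adjusted p-values under 0.05 (Benjamini-Hochberg, over all genes tested) in edgeR's likelihood ratio test. By that rule 5 of 5 tested hormone genes were higher than in the dorsal striatum, where 30.7% of all genes were. Against the ventral striatum 4 of 5 were higher and 1 of 5 lower, where 23.9% and 19.7% of all genes were, and 4 of 5 were higher than in the motor cortex, where 25.4% were. These counts include *Oxt* and *Ghrh* and are no support for a property of the hormone genes. With libraries scaled by size alone, the share of higher calls among all calls moved from 54.6% to 80.7%, from 54.8% to 79.4% and from 52.6% to 74.4% in the same order. The median log2 difference of all genes moved with it, from 0.05 to 0.41, from 0.03 to 0.24 and from 0.05 to 0.28. The differences of *Oxt*, *Avp*, *Trh* and *Ghrh* were far larger than these shifts.

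**Figure D1:**
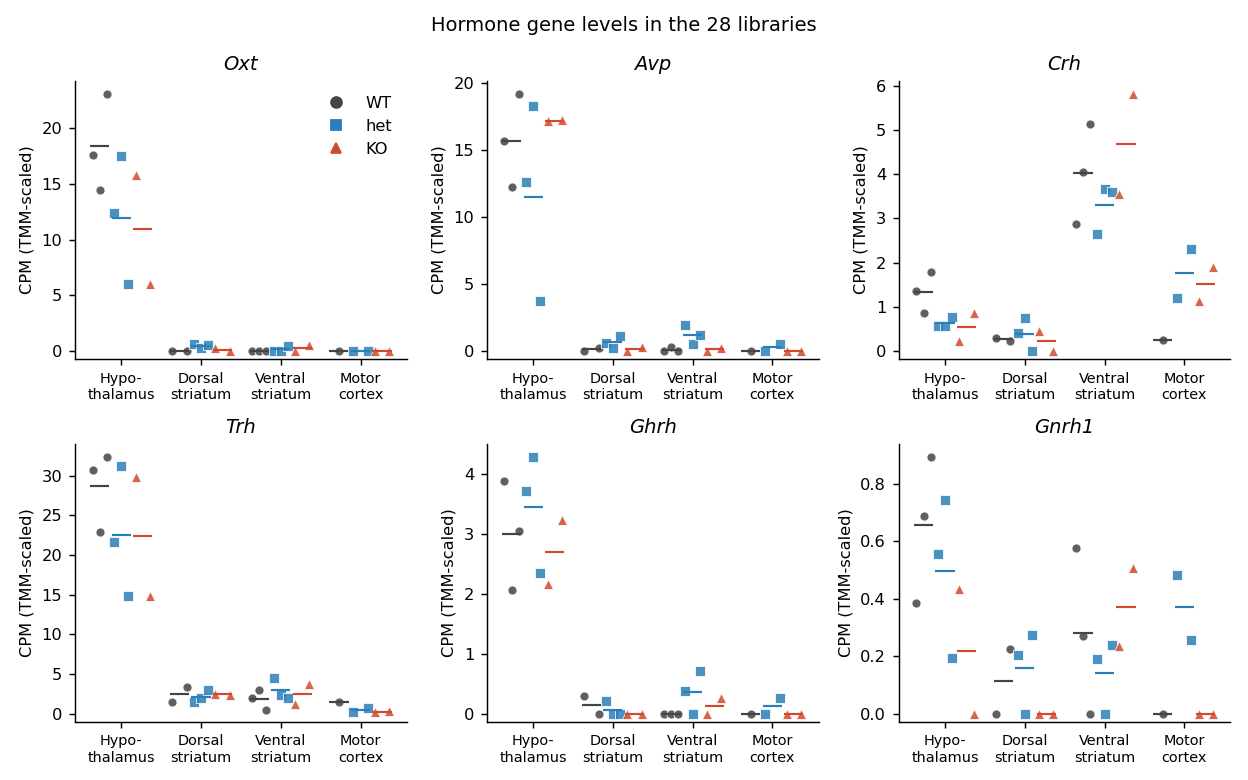
Each panel plots the level of 1 hormone gene (CPM, linear axis from 0) in the 28 libraries by region, with WT, heterozygous and KO libraries side by side and a bar at each group mean. *Oxt*, *Avp*, *Trh* and *Ghrh* stand high in the hypothalamus alone, *Crh* is highest in the ventral striatum, where its 8 libraries lie between 2.66 and 5.82 CPM, and *Gnrh1* stays below 1 CPM everywhere.

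*Oxt* was nearly absent outside the hypothalamus. In the 8 hypothalamus libraries it lay between 6.02 and 23.1 CPM (median 15.1), from 28 to 129 counts. The 7 dorsal striatum libraries lay between 0 and 0.612 CPM (median 0.23) and the 8 ventral striatum libraries between 0 and 0.506 CPM (median 0), while all 5 motor cortex libraries had 0 counts. No library of another region reached the lowest of the hypothalamus. Over summed counts, *Oxt* was 58.4-fold higher than in the dorsal striatum (95% interval 28.2 to 146) and 116-fold higher than in the ventral striatum (45.2 to 428). Against the motor cortex it was at least 97.1-fold higher, with a floor of 3 counts over the region. These intervals cover counting error only. The adjusted p-values of edgeR were 2.80e-42, 3.58e-49 and 4.07e-34. *Oxt* passed the low-count filter through the hypothalamus alone, so these values are a description and no test of the difference.

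*Avp* had a like distribution. Its hypothalamus levels were between 3.7 and 19.2 CPM (median 16.4). Its highest level was 1.09 CPM among dorsal striatum, 1.9 CPM among ventral striatum and 0.515 CPM among motor cortex libraries, so that none of these overlapped the hypothalamus. Its summed counts gave ratios of 41.3 (95% interval 22.3 to 86.5), 24.7 (15.7 to 41.4) and 147 (40.5 to 1217), the last against 2 counts. The adjusted p-values of edgeR were 6.11e-40, 1.63e-41 and 1.28e-31. Most *Avp* counts outside the hypothalamus were in heterozygous libraries, with 27 counts over 8 libraries against 2 counts over 6 WT and 2 counts over 6 KO libraries. The highest single library held 10. *Oxt* had 8, 0 and 3 counts in the same groups, and *Ghrh* 7, 1 and 1. These counts were not tested between genotypes.

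*Trh* was the hormone gene with the most counts and was also measurable outside the hypothalamus. It lay between 14.8 and 32.4 CPM (median 26.4) in the hypothalamus, and its striatal levels were between 1.43 and 3.4 CPM (median 2.36) dorsally and between 0.513 and 4.55 CPM (median 2.19) ventrally. The motor cortex libraries were between 0.224 and 1.44 CPM (median 0.27). The hypothalamus libraries were above all others, and the ranges of the 2 striatal regions overlapped. The log2 differences in edgeR were 3.36 (SE 0.27, adjusted p = 1.44e-37) against the dorsal striatum, 3.34 (SE 0.25, adjusted p = 1.99e-40) against the ventral striatum and 5.36 (SE 0.51, adjusted p = 3.45e-41) against the motor cortex.

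*Ghrh* was present at lower levels. It lay between 2.07 and 4.28 CPM (median 3.13) in the hypothalamus and had 2 counts over the dorsal striatum, 6 over the ventral striatum and 1 over the motor cortex, against 129 over the hypothalamus. The ratios of its summed counts were 44.2 (95% interval 12 to 368), 16.8 (7.49 to 46.5) and 62.9 (11.1 to 2505). The adjusted p-values of edgeR were 4.59e-21, 3.69e-20 and 1.33e-16. *Ghrh* too passed the low-count filter through the hypothalamus alone, so these values are a description and no test of the difference.

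*Crh* was scarce in the hypothalamus, and its highest levels were in the ventral striatum. It lay between 0.217 and 1.79 CPM (median 0.82) in the hypothalamus. Dorsal striatum libraries held between 0 and 0.736 CPM (median 0.3) and ventral striatum libraries between 2.66 and 5.82 CPM (median 3.63). The 5 motor cortex libraries were at 0.24 CPM in WT, 1.21 and 2.31 CPM in heterozygous and 1.12 and 1.89 CPM in KO. Every ventral striatum library was above every hypothalamus library, whereas the hypothalamus overlapped the dorsal striatum and the motor cortex. Over summed counts, 126 against 37, *Crh* was 4.37-fold higher in the ventral striatum (95% interval 3.01 to 6.49). The log2 difference of hypothalamus over ventral striatum in edgeR was -2.32 (SE 0.33, adjusted p = 1.91e-15). Against the dorsal striatum it was 1.31 (SE 0.61, adjusted p = 0.0263), a call that was lost without library 8f (0.91, adjusted p = 0.311) and in DESeq2 (1.37, adjusted p = 0.0683). Against the motor cortex it was -0.17 (SE 0.60, 95% interval -1.34 to 1.01, adjusted p = 0.862), and its sign changed with libraries scaled by size alone (0.06).

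*Gnrh1* was at the edge of detection. Its 8 hypothalamus libraries held 2, 4 and 5 counts in WT, 3, 4 and 1 in heterozygous and 2 and 0 in KO, 21 in all. There were 3 counts over the dorsal striatum, 8 over the ventral striatum and 3 over the motor cortex. The ratio of hypothalamus over ventral striatum was 2.05 (95% interval 0.871 to 5.34), an interval that includes no difference.

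The hypothalamus and the ventral striatum each had a library for each of the 8 digits. Neither the labels nor the study's methods tie a digit to a mouse. Same-digit libraries were not correlated beyond their group (0 of 34 pairs over an r of 0.1). With so few libraries per group, this cannot exclude a shared mouse, and the pairs below are pairs by digit only. *Oxt*, *Avp*, *Trh* and *Ghrh* were higher in the hypothalamus in 8 of 8 pairs, by 4.61 ± 1.16, 4.09 ± 1.46, 3.24 ± 1.09 and 2.56 ± 0.67 in log2 CPM (SD, n = 8). *Crh* was lower in 8 of 8 pairs, by a log2 difference of -1.77 ± 0.53 (SD, n = 8). The two-sided exact sign-flip permutation test gave p = 0.00781 for *Avp*, *Trh* and *Crh*, the smallest it can give with 8 pairs. *Oxt* and *Ghrh* passed the low-count filter through the hypothalamus alone, so their differences here are a description.

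Per kilobase of exon, the order of mean level in the hypothalamus was *Oxt* (26.3 CPM per kb), *Avp* (25.1), *Trh* (17.9), *Ghrh* (4.62), *Gnrh1* (0.759) and *Crh* (0.661). *Oxt* and *Avp* did not differ beyond their spread, and neither did *Gnrh1* and *Crh*. By plain CPM *Trh* came first, since its exons are longer (1384 bp against 537 bp for *Oxt* and 577 bp for *Avp*).

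Within the hypothalamus, no hormone gene was called different between genotypes. In KO over WT, heterozygous over WT and KO over heterozygous, 0 of 5 tested genes passed in edgeR's likelihood ratio test, where 0.167%, 0.0935% and 0.234% of all genes did. None passed in edgeR's quasi-likelihood test or in DESeq2, and 0 of 5 were under an unadjusted p of 0.05 in the likelihood ratio test in any of the 3 comparisons. The quasi-likelihood test had 1 of 5 under that level in KO over WT, where 835 of all 14979 genes were. Without the low-count filter, *Oxt* in KO over WT was under it in the likelihood ratio test too (log2 -0.78, edgeR unadjusted p = 0.0407, adjusted p = 1). The median log2 change of the 5 genes was -0.36, -0.44 and -0.14, and that of all genes 0.01, 0.01 and 0.00. The narrowest interval of KO over WT, that of *Trh*, ran from -1.05 to 0.33.

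**Figure D2:**
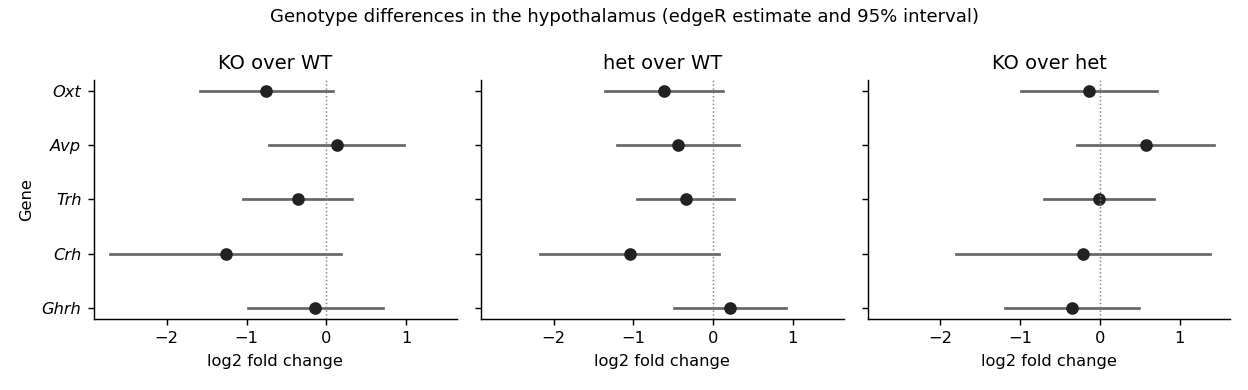
Points are the log2 fold changes of *Oxt*, *Avp*, *Trh*, *Crh* and *Ghrh* between genotypes in the hypothalamus as estimated by edgeR, and lines are their 95% intervals. Every interval includes 0, and those of *Crh*, the gene with the fewest counts, are the widest (-2.71 to 0.19 in KO over WT).

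*Oxt* had its highest level in a WT library, and no difference between genotypes passed the test. It was at 17.6, 14.5 and 23.1 CPM in WT, 12.4, 17.5 and 6.04 CPM in heterozygous and 15.8 and 6.02 CPM in KO libraries. Libraries 6f and 8f were the low ones, and the genotypes overlapped. The means were 18.4 ± 4.38 (SD, n = 3), 12 ± 5.74 (SD, n = 3) and 10.9 ± 6.93 CPM (SD, n = 2). The log2 change of KO over WT was -0.75 (SE 0.43, 95% interval -1.59 to 0.09, edgeR adjusted p = 0.88), and that of heterozygous over WT was -0.62 (SE 0.38, 95% interval -1.35 to 0.12, adjusted p = 0.963). The KO value was -0.22 without 8f and -1.61 without 7f, the heterozygous value was -0.30 without 6f and -0.99 without 5f, and none of these passed the test.

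*Trh* followed *Oxt* from library to library. It was at 30.8, 22.9 and 32.4 CPM in WT, 21.7, 31.3 and 14.8 CPM in heterozygous and 29.9 and 14.8 CPM in KO libraries. 6f and 8f were again the lowest, and the genotypes overlapped. The log2 change of KO over WT was -0.36 (SE 0.35, 95% interval -1.05 to 0.33, edgeR adjusted p = 0.999), and without 8f it was 0.06. Without 7f it was -0.95. Heterozygous over WT was -0.34 (SE 0.31, edgeR adjusted p = 1.00), and it was -0.12 without 6f and -0.65 without 5f.

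*Avp* did not share the low level of *Oxt* in 8f. It was at 15.7, 12.2 and 19.2 CPM in WT, 12.6, 18.2 and 3.7 CPM in heterozygous and 17.1 and 17.2 CPM in KO libraries. 6f was the lowest, and 8f was above the median of the 8 libraries. The log2 change was 0.13 in KO over WT (SE 0.43, 95% interval -0.72 to 0.98, edgeR adjusted p = 0.999), -0.44 in heterozygous over WT (SE 0.39) and 0.57 in KO over heterozygous (SE 0.44). Without 6f, heterozygous over WT was -0.02 and KO over heterozygous 0.15, and without 5f they were -0.94 and 1.07.

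*Crh* had non-overlapping WT and heterozygous groups and non-overlapping WT and KO groups, by a margin of few counts. It had 7, 5 and 10 counts in WT, 3, 3 and 4 in heterozygous and 1 and 4 in KO libraries, at 1.35, 0.861 and 1.79 CPM, 0.556, 0.559 and 0.779 CPM, and 0.217 and 0.86 CPM. WT library 2f and KO library 8f were next to each other. The log2 change was -1.26 in KO over WT (SE 0.74, edgeR adjusted p = 0.84) and -1.05 in heterozygous over WT (SE 0.57, adjusted p = 0.889). The KO value was -0.61 without 7f and -2.47 without 8f. Groups in which all libraries were below all WT libraries made up 10% of all genes in KO and 5.04% in heterozygous hypothalamus. The exact two-sided permutation test gave p = 0.2 for KO and p = 0.1 for heterozygous, the smallest it can give with 3 against 2 and with 3 against 3 libraries. With counts this low, the depth cannot show a difference of moderate size.

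*Ghrh* was at 3.87, 2.07 and 3.05 CPM in WT, 3.71, 4.28 and 2.34 CPM in heterozygous and 2.17 and 3.22 CPM in KO libraries. The 3 genotypes overlapped throughout. The log2 change was -0.14 in KO over WT (SE 0.43, 95% interval -0.99 to 0.71, edgeR adjusted p = 0.999) and 0.21 in heterozygous over WT (SE 0.36, adjusted p = 1.00). For *Gnrh1*, a fit without the filter gave -1.54 in KO over WT (edgeR unadjusted p = 0.0916, adjusted p = 1).

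For single genes without the spread shared across genes, the exact permutation test on log2 CPM gave the smallest possible p for *Crh* against WT alone. The p-values of *Oxt*, *Avp*, *Trh* and *Ghrh* were between 0.2 and 1, and *Crh* had 0.8 in KO over heterozygous.

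In the other regions, 0 of 5 hormone genes were called in KO over WT, where 0.387% of all genes were in the dorsal striatum, 0.0801% in the ventral striatum and 0.0334% in the motor cortex by edgeR's likelihood ratio test. In the motor cortex the log2 change was 2.48 for *Crh* and -2.43 for *Trh*. WT had 1 library there, so these values have no replicate check. *Crh* in the ventral striatum, its richest source here, was at 2.88, 4.04 and 5.13 CPM in WT, 2.66, 3.59 and 3.67 CPM in heterozygous and 3.55 and 5.82 CPM in KO libraries, which overlapped (KO over WT log2 change 0.20, SE 0.37, edgeR adjusted p = 0.979). The change of KO over WT in the hypothalamus minus its mean over both striatal regions was called for 0 of 5 genes in edgeR's likelihood ratio and quasi-likelihood tests, against 0.167% of all genes in the first. *Oxt* alone of the 5 had an unadjusted p under 0.05 there (edgeR's likelihood ratio test, unadjusted p = 0.0197, adjusted p = 0.634). So had 941 of all 14979 genes in that test, and all 5 WT striatal libraries were at 0 *Oxt* counts.

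Library-to-library variation in the hypothalamus was shared by some of the genes. *Oxt* and *Trh* varied together over the 8 libraries, with Pearson's r = 0.972 (exact permutation p = 9.92e-05, adjusted over 10 pairs 0.000992) and Spearman's rho = 0.952 (exact p = 0.00114, adjusted 0.0114). Without 6f and 8f, the libraries farthest from the median of *Oxt*, r was 0.862. A genotype holds only 2 or 3 libraries, too few for a value of its own. On deviations from the genotype means r was 0.979, without a p-value, since such deviations cannot be exchanged between genotypes. With libraries scaled by size alone r was 0.979 (exact p = 4.96e-05, adjusted 0.000496).

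The other 9 pairs did not pass. *Oxt* and *Avp*, the neighbors on chromosome 2, had r = 0.626 (exact p = 0.0863, adjusted 0.288) and rho = 0.524 (exact p = 0.197, adjusted 0.654), and r was 0.84 without 6f and 8f. *Avp* and *Trh* had r = 0.644 (exact p = 0.0545, adjusted 0.272) and rho = 0.714 (exact p = 0.0576, adjusted 0.288), and r fell to 0.324 without 2f and 6f. The remaining 7 pairs, each with *Crh* or *Ghrh*, had r between 0.065 and 0.414.

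**Figure D3:**
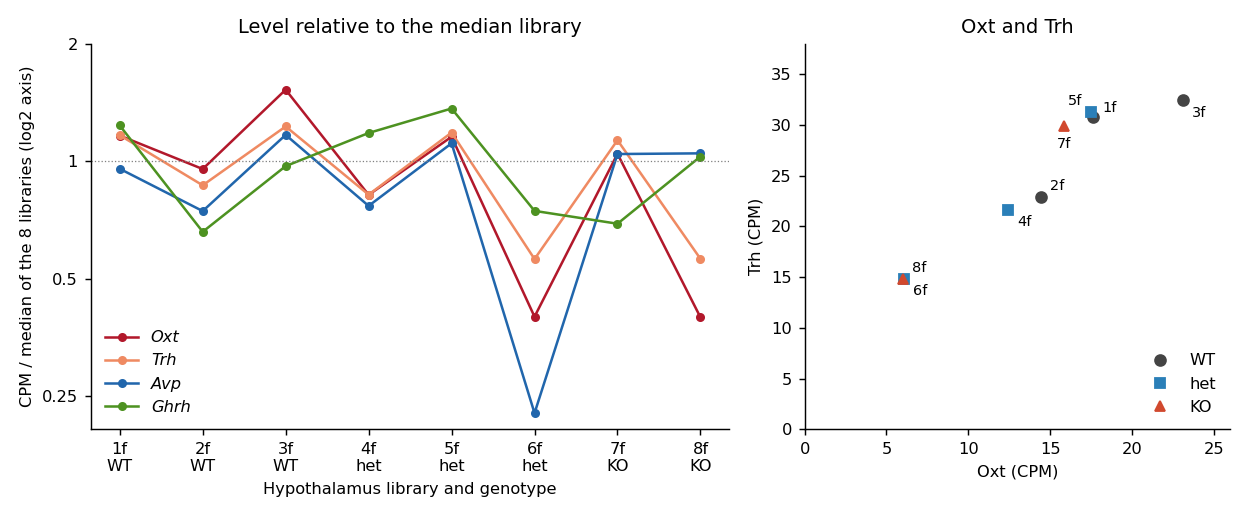
The left panel plots *Oxt*, *Trh*, *Avp* and *Ghrh* in each hypothalamus library relative to the gene's median (log2 axis), and the right panel plots *Trh* against *Oxt* (CPM), 1 point per library. *Oxt* and *Trh* drop together in 6f and 8f, to 0.399 and 0.561 of their medians in 6f and 0.398 and 0.562 in 8f, while *Avp* drops to 0.226 in 6f and stands at 1.05 in 8f.

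The share of *Avp* in the counts of *Avp* and *Oxt* was highest in library 8f. *Avp* made up 47.1%, 45.8% and 45.3% of the counts of both genes in WT, 50.4%, 51% and 38% in heterozygous and 52% and 74.1% in KO libraries. The exact 95% binomial interval of 8f was 64.8% to 82%, and the highest bound among the other 7 libraries was 60.1%, that of 7f, the other KO library. These intervals cover counting error only. Over all genes, hypothalamus libraries of 1 genotype differed by more than that (chi-square per degree of freedom 2.78 to 7.27), a value not specific to *Avp* and *Oxt*. Whether 8f differs beyond the spread between libraries was not tested. *Trh* stayed closer to *Oxt*, at between 1.4 and 2.46 *Trh* counts per *Oxt* count, with 6f and 8f at the top (2.45 and 2.46).

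The libraries with the lowest hormone gene sums differed from each other in markers of neighboring tissue. The summed CPM of the 6 listed hormone genes was 27.9 in 6f and 42.1 in 8f, against 51.5 to 80.5 in the other 6. In 8f *Oxt* and *Trh* were low, while *Avp*, *Crh* and *Ghrh* were at 1.05, 1.05 and 1.03 of their medians. In 6f, *Prkcd*, a thalamus marker, was at 177.5 CPM against 31.3 to 130.3 CPM elsewhere, and the dopamine transporter gene *Slc6a3* at 136 CPM against 2.61 to 99.5 CPM. 8f had the lowest thalamus sum of the 8 libraries, 380 CPM, with *Prkcd* at 35.3 CPM and *Slc6a3* at 21.1 CPM. The second highest thalamus sum, 841.1 CPM, was in 2f, whose hormone sum was 53.2 CPM. In 8f, the cortical genes *Slc17a7* and *Tbr1* were at 198 and 62.1 CPM, against at most 44.8 and 11.4 CPM in the other libraries. *Sim1*, which the paraventricular and supraoptic nuclei need to form, was at 5.26 CPM in 6f and 6.02 CPM in 8f against 10.7 to 15.1 CPM in the others, the same low libraries as for *Oxt* and *Trh*. *Otp* was at 15.6 and 21.9 CPM in these libraries against 21.2 to 41.3 CPM. The 11 listed transcription factors summed to 211.8 CPM in 6f and 247.6 CPM in 8f, against 232.6 to 277.2 CPM in the others. *Arnt2*, the largest part of these sums, was highest in 8f (156.5 CPM). The lateral hypothalamic peptide genes were near their highest levels in 8f, with *Hcrt* at 75.7 CPM and *Pmch* at 115 CPM. The part of the dissection in the levels of the hormone genes was not tested.

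**Figure D4:**
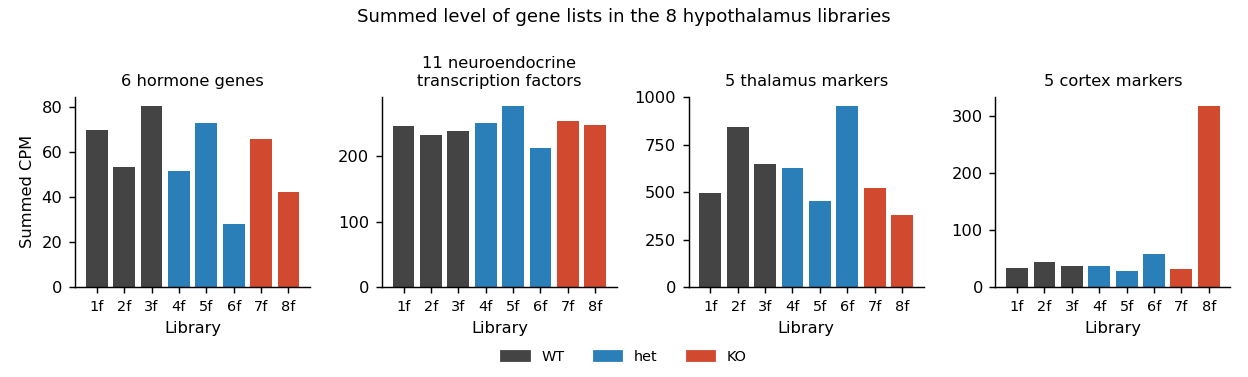
Bars give the summed CPM in each of the 8 hypothalamus libraries, colored by genotype, of the 6 hormone genes, 11 neuroendocrine transcription factors, 5 thalamus markers and 5 cortex markers. Library 6f has the lowest hormone sum (27.9 CPM) and the highest thalamus sum (955 CPM), and 8f has a cortex sum of 318.5 CPM.

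By correlation of log2 CPM over the 8 hypothalamus libraries, among genes with a mean of at least 5 CPM there, the genes most like *Oxt* were *Yme1l1* (r = 0.983), *Tapbp* (r = 0.975) and *Trh*. Those most like *Avp* were *Kdelc2* (r = 0.973), *Dbnl* (r = 0.966) and *Rbm6* (r = 0.958), and those most like *Trh* were *Oxt*, *Tapbp* (r = 0.969) and *Vat1* (r = 0.962). For *Ghrh* they were *Polr3b* (r = 0.956), *Sfmbt2* (r = 0.94) and *Tspan18* (r = 0.935). These are the top of at least 10061 genes each, which share the same 8 libraries and their depth. The 50th gene still had r between 0.851 and 0.904, so such values describe these libraries only.

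The other genes of the hormone pathways were read from lists. Of 15 genes that process and store peptide hormones, 11 were higher and 1 lower in the hypothalamus than in the dorsal striatum, 10 were higher than in the ventral striatum, and 6 were higher and 2 lower than in the motor cortex (edgeR's likelihood ratio test). The shares of all genes called higher and lower, against which the lists can be read, were 30.7% and 25.5% for the dorsal striatum, 23.9% and 19.7% for the ventral striatum and 25.4% and 22.9% for the motor cortex. *Pcsk1*, a prohormone convertase that cleaves the *Crh* and *Trh* precursors among others, was at 31.3 ± 4.36 CPM (SD, n = 8) and higher than in the dorsal striatum by 1.88 in log2 (edgeR adjusted p = 4.74e-50). *Pam*, the enzyme that amidates oxytocin, vasopressin and thyrotropin-releasing hormone, was at 253.9 ± 37.1 CPM (SD, n = 8). *Pcsk2*, another convertase, was lower than in the dorsal striatum (log2 -0.66, edgeR adjusted p = 1.23e-11). Of 10 tested genes for hormone receptors, binding proteins and hormone-degrading peptidases, 8 were higher and 1 lower than in the dorsal striatum, 5 higher than in the ventral striatum, and 4 higher and 3 lower than in the motor cortex. *Trhr*, the thyrotropin-releasing hormone receptor gene, was at 10.5 ± 3.19 CPM (SD, n = 8), and *Oxtr*, the oxytocin receptor gene, at 6.64 ± 0.551 CPM (SD, n = 8).

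Of 10 tested transcription factors of neuroendocrine neurons, 9 were higher and 1 lower than in the dorsal striatum, 8 higher than in the ventral striatum, and 7 higher and 2 lower than in the motor cortex. *Otp* was higher than in the ventral striatum by 5.41 in log2 (SE 0.40, edgeR adjusted p = 6.71e-74). Of 9 other regulators of the pituitary, 7 were higher and 1 lower than in the dorsal striatum. Against the ventral striatum 6 were higher and 2 lower, and against the motor cortex 8 were higher and 1 lower. *Th*, which encodes the key enzyme of dopamine synthesis, was higher than in each other region. *Sst*, which encodes somatostatin, was lower than in the ventral striatum and the motor cortex and not called against the dorsal striatum. Its mean was 33.3 CPM, against 37.9 CPM dorsally, 57.2 CPM ventrally and 49.95 CPM in the motor cortex. *Th* and *Slc6a3*, both on this list, varied widely over the hypothalamus libraries, from 15.2 to 55.7 CPM and from 2.61 to 136 CPM.

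Between genotypes in the hypothalamus, 0 of 15 processing genes, 0 of 10 receptor genes, 0 of 10 transcription factors and 0 of 9 other regulators were called in any of the 3 comparisons, in edgeR's likelihood ratio and quasi-likelihood tests and in DESeq2. In KO over WT, 1 processing gene (*Pcsk1*, log2 0.38, edgeR unadjusted p = 0.0271, adjusted p = 0.725) and 1 transcription factor (*Gsx1*, which *Ghrh* neurons need, log2 1.61, edgeR unadjusted p = 0.0272, adjusted p = 0.725) were under an unadjusted p of 0.05 in the likelihood ratio test. In KO over heterozygous the receptor list had 1 such gene, *Trhde* (edgeR unadjusted p = 0.0184, adjusted p = 0.777), which encodes the peptidase that degrades thyrotropin-releasing hormone. Heterozygous over WT had 0 in these lists. Of all 14979 genes, 900 were under that level in KO over WT, 831 in KO over heterozygous and 842 in heterozygous over WT. Among markers of the nuclei around the hormone neurons, *Vip*, a peptide of the suprachiasmatic nucleus, was lower in heterozygous than in WT (log2 -2.38, SE 0.63, edgeR adjusted p = 0.033) and higher in KO than in heterozygous libraries (log2 2.68, SE 0.66, adjusted p = 0.00889). It was at 4.45, 0.516 and 4.3 CPM in WT, 0.371, 0.931 and 0.39 CPM in heterozygous and 4.77 and 2.79 CPM in KO libraries, so that 1 WT library lay within the heterozygous range. Its heterozygous call was lost when 1f, 3f, 4f, 5f or 6f was left out (adjusted p from 0.057 to 0.574), and its KO call when 7f, 8f, 4f or 6f was (0.0818 to 0.225). *Npy*, an arcuate peptide, was higher in KO than in WT (log2 0.83, SE 0.21, edgeR adjusted p = 0.0393), at 12, 15.7 and 20.3 CPM in WT and 21.2 and 35.7 CPM in KO libraries. Without 8f, the library with the cortex markers, its log2 change was 0.41 (edgeR adjusted p = 1), and the call was also lost without 1f or 2f. *Npy* was higher in the motor cortex than in the hypothalamus (log2 -2.33 for hypothalamus over motor cortex, edgeR adjusted p = 1.27e-83). The part of cortex RNA in the *Npy* difference between genotypes was not tested. *Avp* and *Ghrh*, which are transcribed in the same nuclei, were not called in these comparisons.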

How the data were processed

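RNA was taken from 4 dissected brain regions, amplified from total RNA with the Ovation system and sequenced in single-end reads. The authors trimmed reads with Trimmomatic 0.32, removed ribosomal reads with Bowtie2 2.2.3, aligned to GRCm38 with STAR 2.3.1z8 and counted reads on exons with HTSeq 0.6.1p1 in union mode. They deposited raw counts per gene, 1 file per library, without normalization. The strand setting is not given in the sources used here. Rows that name no gene took 45.78% to 55.22% of the tallied reads and were left out of library sizes and tests, as was a GFP row, which held 0 counts.

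GENCODE M21 on GRCm38 gave symbols and positions and matched 28758 of 29878 identifiers. Genes above 1 CPM, before TMM scaling, in at least 2 libraries were kept. Counts were fitted with edgeR 4.0.16 (glmFit and glmLRT) in R 4.3.3 on all 28 libraries, with TMM scaling and 1 mean for each of the 12 groups, and p-values were adjusted over all 14979 genes. Region differences weighted the 3 genotypes equally. Log2 CPM used a prior count of 2. Ratios of summed counts carry exact conditional binomial intervals, and correlations and group differences were tested by exact permutation with scipy 1.17.1. Alternatives were edgeR's quasi-likelihood test, DESeq2 1.42.0, other scalings, no filter, fewer libraries, a replicate block and leaving out each hypothalamus library. The fits were tested on simulated data. A fitted fold is not given where a group had 0 counts.

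The hormone genes and the lists were chosen with earlier results of these data known. Genes named in the text are the hormone genes, up to 4 genes of highest hypothalamus level and those called between genotypes in each list, the 3 genes most like each hormone gene, and *Hdc*. *Gsx1*, *Pcsk1*, *Pcsk2*, *Bsx*, *Rax*, *Gh* and *Pou1f1* were chosen after their values were seen. Replicates are libraries that the labels name separately, and nothing says whether library preparation was shared, so p-values measure the spread between these libraries. Libraries with the same digit were not correlated beyond their group: r was between -0.08 and 0.086 over 34 pairs. Digits 7 and 8 gave the same r in each pair of regions, so these pairs are not all separate values. No 2 hypothalamus libraries of a group looked like 1 library deposited again.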

Additional observations from a re-analysis of the deposited data

How the results depend on the processing

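*Oxt*, *Avp*, *Trh* and *Ghrh* stayed higher in the hypothalamus than in each other region, and no hormone gene was called between genotypes, under every alternative run. Counts of all genes called did move. KO over WT in the hypothalamus, 25 genes, became 6 in DESeq2, 4 in the quasi-likelihood test, 16 with libraries scaled by size alone and 12 with the 8 hypothalamus libraries alone. Heterozygous over WT, 14 genes, became 1 in DESeq2 and 2 in the quasi-likelihood test. KO over heterozygous, 35 genes, became 7 in DESeq2 and 0 in the quasi-likelihood test, which had 743 genes at an unadjusted p under 0.05. The change in the hypothalamus minus that in the striatum, 25 genes, became 1 in the quasi-likelihood test. Leaving out 1 library gave 4 to 143 genes in KO over WT, 2 to 13 in heterozygous over WT and 0 to 97 in KO over heterozygous. The KO extremes were without 8f (4 and 0, the latter with 564 genes at an unadjusted p under 0.05) and without 7f (143 and 97), where the lone KO library is assumed to vary like the other groups.

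Directions that no test had called turned as follows. With libraries scaled by size alone, *Crh* in hypothalamus over motor cortex was 0.060 and *Trh* in KO over heterozygous 0.024 in log2. On deviations from genotype means, r was -0.077 for *Avp* and *Crh*, -0.435 for *Crh* and *Trh* and -0.462 for *Oxt* and *Crh*. Leaving out 1 library, the log2 change of KO over WT ranged from -0.023 to 0.30 for *Avp*, -0.45 to 0.11 for *Ghrh* and -0.95 to 0.059 for *Trh*. KO over heterozygous ranged from -1.42 to 0.43 for *Crh*, -0.99 to 0.40 for *Oxt* and -0.61 to 0.40 for *Trh*, and hypothalamus over motor cortex from -0.57 to 0.049 for *Crh*. The causes were not tested. No pairing of the libraries by the digits of their names was seen, which cannot exclude one with so few libraries per group. With a replicate block by digit, 8268, 6517 and 6943 genes were called for the hypothalamus over the dorsal striatum, ventral striatum and motor cortex, against 8407, 6533 and 7224 without it. Genotype comparisons could not be fitted with the block, since each digit has 1 genotype. Depth limits *Crh* and *Gnrh1*, with at most 10 and 5 counts per hypothalamus library.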
